A study of Mus musculus with 10 samples.

Results

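The matrix proteases, their TIMP inhibitors and the lysyl oxidases were described in mouse liver after adenoviral transfer of VEGF-A. The members were the transcripts whose gene symbol is Mmp, Timp, Adam, Adamts or Adamtsl with a number, or Lox or Loxl1 to Loxl4, and they came to 89 of the 24016 transcripts measured. They comprised 23 matrix metalloproteinases (MMPs; 16 secreted, 7 membrane-bound), 4 TIMPs, 33 ADAMs, 19 ADAMTS proteases, 5 ADAMTS-like proteins and 5 lysyl oxidases.

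RNA from whole liver was sequenced for 10 male C57/Bl6 mice, 8 to 12 weeks old, on day 6 after injection into the tail vein. The AdVEGF group of 5 mice received a serotype 5 adenovirus that expresses VEGF-A165 from the CMV promoter, which is active in many cell types. The AdCMV group of 5 mice received the empty adenovirus, with the CMV promoter and no transgene, so both groups carried a virus. In both groups the tissue was taken after perfusion with PBS, and ribosomal RNA was depleted before sequencing. The library totals that the RPKM imply were between 5758960 and 13493991 reads in the AdCMV group and between 5596563 and 8133948 in the AdVEGF group. The reads summed over transcripts exceeded these totals in all 10 libraries, for a cause that was not tested. Values are RPKM, the reads on a transcript scaled by its length and by the library total. The comparison asked which of the enzymes and inhibitors that remodel the matrix differed in level between livers given VEGF-A and livers given the empty virus.

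MMPs are zinc proteases that cut collagens, laminins and other matrix proteins, and most are made as inactive proenzymes. ADAMs sit in the membrane and shed the outer part of other membrane proteins, while ADAMTS proteases are secreted and cut proteoglycans and procollagens. TIMPs bind the active site of MMPs, and lysyl oxidases oxidise lysine residues so that collagen and elastin fibres become cross-linked. In liver these genes are known from the turnover of the perisinusoidal matrix, largely through stellate cells, sinusoidal endothelium and macrophages.

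The 10 members on chromosome 9 that form the MMP gene cluster lie within 7272514 to 7699416 of mm9, the build named in the submitters' notes. Only Mmp12 and Mmp13 of this cluster reached the level needed for a test, and their values ran lower in the AdVEGF group, so the start regions of the cluster are shown first. Promoter windows of 300 bases, 250 before and 50 after an annotated start, came from RefSeq (GRCm38.p6) and were matched by symbol for 54 of the 89 members. They were searched on both strands for the binding motifs of AP-1 (written TGANTCA), TEAD factors (written GGAATG) and ETS factors (written CCGGAAG), and for the TATA box (written TATAAA). The AP-1 motif was present at 8 of the 10 cluster genes, Mmp1a, Mmp1b, Mmp3, Mmp7, Mmp10, Mmp12, Mmp13 and Mmp20, and each of these also held the TATA box in the same window. Both motifs together were found in 1.54% of all 32851 promoters in the table. That share is counted by window and the cluster by gene, and Mmp7 and Mmp12 each had another window with neither motif. The place of the TATAAA match differed among these 8 genes, from base -123 in Mmp7, which also held 1 at -26, to base 4 in Mmp12. The 150 bases before the start are printed 5′ to 3′ for the pair of cluster genes that were measured above the filter, for 2 more of the cluster that had few reads, and for Adam19, the only member called higher whose window held the AP-1 motif. Capitals mark the AP-1 motif and the TATA box, and all 5 stretches are on the plus strand of GRCm38.p6. In Mmp12 the TATA box began at base 4 after the start and is therefore outside the stretch.
Mmp12, chr9:7347224-7347373: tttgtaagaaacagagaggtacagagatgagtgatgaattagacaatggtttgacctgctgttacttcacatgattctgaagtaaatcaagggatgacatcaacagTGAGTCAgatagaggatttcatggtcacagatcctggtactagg
Mmp13, chr9:7272364-7272513: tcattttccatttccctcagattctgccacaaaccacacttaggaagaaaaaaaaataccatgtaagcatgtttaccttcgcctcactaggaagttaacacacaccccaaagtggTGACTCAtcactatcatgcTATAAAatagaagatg
Mmp3, chr9:7445672-7445821: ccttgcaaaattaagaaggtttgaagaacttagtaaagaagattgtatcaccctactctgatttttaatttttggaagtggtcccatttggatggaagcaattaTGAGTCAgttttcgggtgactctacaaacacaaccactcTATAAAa
Mmp10, chr9:7502192-7502341: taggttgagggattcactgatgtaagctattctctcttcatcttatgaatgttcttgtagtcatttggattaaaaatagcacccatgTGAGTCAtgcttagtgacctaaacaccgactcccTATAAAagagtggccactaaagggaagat
Adam19, chr11:46055834-46055983: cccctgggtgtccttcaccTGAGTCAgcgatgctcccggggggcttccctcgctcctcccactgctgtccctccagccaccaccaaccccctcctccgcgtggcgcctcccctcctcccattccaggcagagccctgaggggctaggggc

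Of the 22 members called higher, described next, 14 had a promoter entry, with 17 windows between them. The AP-1 motif was in 1 of these windows, which is 5.88%, against 7.81% of all promoters and 5.67% of those of the transcripts tested. The TATA box was in 1 window, at Adamts1, against 13.6% of all promoters and 8.1% of those of the transcripts tested. The TEAD motif was in 1 window, at Adam19, against 14.7% of all promoters and 12.6% of those of the transcripts tested. The ETS motif was in 1 window, at Adam15, against 8.86% of all promoters and 16.1% of those of the transcripts tested. The members called higher therefore did not share any of these motifs in these windows, while 8 of the 10 genes of the chromosome 9 cluster shared 2 of them. A match of letters shows neither binding nor use of the start.

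Of the 89 members, 38 passed the filter, a group mean above 0.5 RPKM in either group. The test was made by limma, with 0.1 RPKM added to each value before taking log2, which understates the change of low genes. SE is the standard error of the log2 fold change. Of these 38, 22 were called higher in the AdVEGF group and 1 lower, where a call needed a limma adjusted p below 0.05 together with a log2 fold change beyond 1 or -1, and 15 were not called. Over all 13933 transcripts tested, 13% were called higher and 1.54% lower. The median log2 fold change was 1.19 for the tested members and 0.38 for all transcripts tested. Passing the filter bears on these counts, because 27 members passed in both groups, with 13 called higher and 1 lower, and 11 passed through the AdVEGF mean alone, with 9 called higher. These 9 were Mmp2, Mmp11, Mmp17, Adam12, Adamts2, Adamts4, Adamts5, Adamts9 and Adamts12. Adamts14 and Adamtsl2 passed the same way and were not called. Of all transcripts, 12821 passed in both groups, with 1290 called higher, and 933 through the AdVEGF mean alone, with 518 called higher, so high shares of calls go with this way of passing. The members not tested numbered 51, of which 17 had no read in any library.

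The deposited RPKM carry a shift between the groups that touches each member. The median of all transcripts was 0.38 on the log2 scale, and the cause of the shift was not tested. Median-ratio scaling centres that median by its construction, here at -0.0044, so the scaled value gives no information on the shift. After that scaling 16 of the 38 members were called higher and 2 lower, where 7.77% of all transcripts tested were higher and 3.14% lower. All 16 were among the 22, and the members whose call was lost were Mmp14, Mmp15, Mmp25, Adam15, Adam23 and Loxl3. The call gained was that of Mmp13, lower. Across all transcripts the calls went from 1808 higher and 214 lower to 1082 higher and 438 lower. The 21 Mup genes, abundant hepatocyte transcripts, took 42.2, 39.6, 18, 50.5 and 32.4% of the reads summed over transcripts in AdCMV replicates 1 to 5 and 17, 17.1, 7.84, 11.2 and 28.6% in AdVEGF replicates 1 to 5, and their part in the shift was not tested.

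In 19 of the 38 tested members every AdVEGF mouse lay above every AdCMV mouse, and all 19 were among those called higher. Such a separation was seen in 14.3% of all transcripts tested, a figure that the filter also bears on. Of the 27 members that passed in both groups it held for 10, against 1562 of 12821 transcripts, and of the 11 that passed through the AdVEGF mean alone for 9, against 432 of 933. In 0 of the 38 did every AdVEGF mouse lie below every AdCMV mouse, against 1.29% of all transcripts tested. After median-ratio scaling the AdVEGF mice were all above in 20 members, against 10.6% of all transcripts tested, and all below in 3 members, Mmp12, Mmp13 and Mmp19, against 7.16%. Since whole liver was sequenced, more cells of a type and more RNA per cell cannot be told apart in any of these values.

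**Figure D1:**
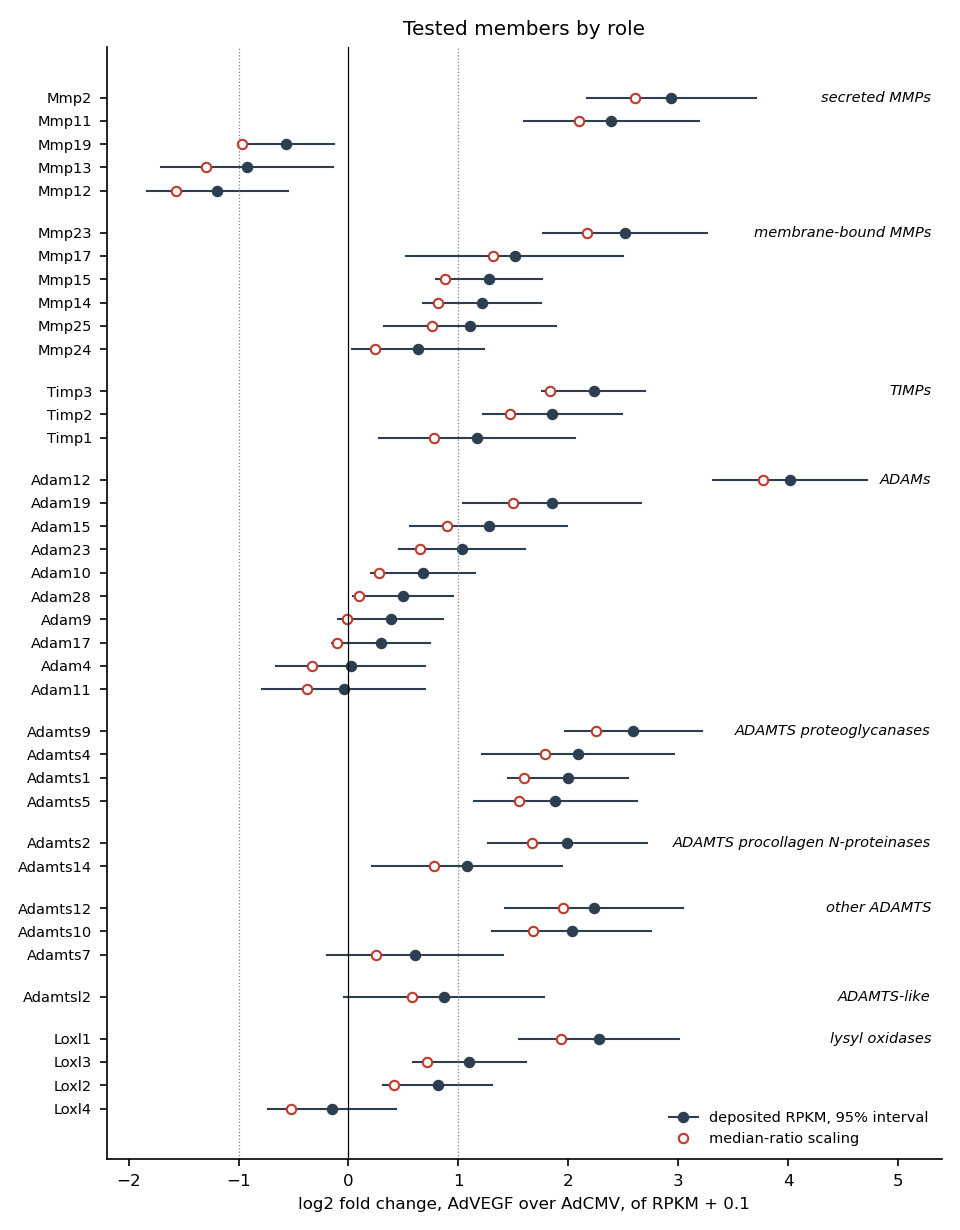
Log2 fold change of RPKM + 0.1, AdVEGF over AdCMV (horizontal axis), for each of the 38 tested members, grouped by role; filled points with lines give the deposited RPKM and its 95% interval, open points the value after median-ratio scaling, and dotted lines mark -1 and 1. Adam12 lies farthest to the right at 4.02, and Mmp12, Mmp13, Mmp19, Loxl4 and Adam11 lie left of 0 with both scalings.

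Among the 16 secreted MMPs, 5 were tested, and they went in both directions. Mmp2 and Mmp11 were called higher, Mmp12 was called lower, and Mmp13 and Mmp19 were not called on the deposited RPKM. Both higher calls were of members that passed the filter through the AdVEGF mean alone, while Mmp12, Mmp13 and Mmp19 passed in both groups. Mmp2, gelatinase A, which cuts denatured collagen and the type IV collagen of basement membranes (NM_008610, chromosome 8, 95351227 to 95377319), had an RPKM of 0.137, 0.245, 0.419, 0.21 and 0.459 in AdCMV replicates 1 to 5 and of 4.71, 3.96, 2.6, 1.34 and 2.46 in AdVEGF replicates 1 to 5. The AdVEGF mice were all above the AdCMV mice, with replicate 4 the lowest of them. The ratio of the group means was 10.2 (log2 fold change 2.94, SE 0.36, limma adjusted p = 1.41e-05). Mmp11, an MMP that is activated inside the cell by furin-like proteases, had 1, 7, 2, 2 and 1 reads in the AdCMV mice and 16, 11, 12, 22 and 15 in the AdVEGF mice, which corresponds to 0.116 ± 0.0676 and 1.02 ± 0.241 RPKM (SD, n = 5). All 5 AdVEGF mice were above the AdCMV mice (log2 fold change 2.39, SE 0.38, limma adjusted p = 0.00018).

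Mmp19 was the most abundant of all 89 members in the AdCMV group, and only number 5 in the AdVEGF group. This protease of basement membrane proteins (NM_021412, chromosome 10, 128228009 to 128237880) had an RPKM of 26.4, 30.0, 41.5, 22.6 and 28.6 in the AdCMV mice and of 19.9, 19.3, 19.2, 26.3 and 15.4 in the AdVEGF mice. The groups overlapped through AdVEGF replicate 4 and AdCMV replicate 4. The difference did not pass the test on the deposited RPKM (log2 fold change -0.56, SE 0.21, limma adjusted p = 0.0554). Median-ratio scaling brought it to -0.97, and no value of one group lay within the other, but it stayed short of the limit of -1. Over 789 bases the gene overlaps Tmem198b, which lies on the opposite strand with an RPKM of 30.2 and 22.9 in the groups (log2 fold change -0.41). The sources do not say whether reads were counted by strand, so the reads of the pair cannot be told apart over that stretch.

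Mmp12 and Mmp13, the neighbours at the edge of the chromosome 9 cluster, had lower means in the AdVEGF group. Mmp12, the macrophage elastase (NM_008605, chromosome 9, 7347374 to 7360461), had an RPKM of 1.8, 2.74, 5.47, 2.42 and 4.68 in the AdCMV mice and of 1.29, 1.09, 1.89, 1.47 and 1.03 in the AdVEGF mice. AdCMV replicates 3 and 5 were high, and AdCMV replicate 1 lay just below AdVEGF replicate 3, so the groups overlapped on the deposited RPKM. It was called lower (log2 fold change -1.19, SE 0.30, limma adjusted p = 0.00889), and without AdCMV replicate 3 the log2 fold change was -0.999 and no longer called. Mmp13, the main interstitial collagenase of the mouse (NM_008607, chromosome 9, 7272514 to 7283333), had 1.09, 3.53, 3.91, 1.03 and 1.89 in the AdCMV mice and 1.14, 0.758, 1.34, 0.646 and 1.28 in the AdVEGF mice, in RPKM. AdCMV replicates 2, 3 and 5 were above every AdVEGF mouse, and AdCMV replicates 1 and 4 lay among the AdVEGF mice on the deposited RPKM. It was not called on the deposited RPKM (log2 fold change -0.93, SE 0.37, limma adjusted p = 0.0777), and it was called lower after median-ratio scaling, at -1.29, and without AdCMV replicate 4, at -1.15. Both lie in the cluster whose start regions are printed above.

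The other 11 secreted MMPs stayed below the filter. Mmp1a and Mmp1b had no read in any library. Mmp9, gelatinase B, had 5, 18, 4, 5 and 7 reads in the AdCMV mice and 5, 3, 5, 11 and 3 in the AdVEGF mice. Mmp8, the neutrophil collagenase, had 1, 15, 3, 2 and 2 reads in the AdCMV mice and 2, 5, 2, 20 and 2 in the AdVEGF mice, with AdCMV replicate 2 and AdVEGF replicate 4 high. Of the cluster genes whose start is printed, Mmp3 had 8 and Mmp10 had 3 reads over all 10 libraries together.

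Of the 7 membrane-bound MMPs, 6 were tested, 5 were called higher and none lower, and 2 of the 5 were also called after median-ratio scaling. The value of each of these 6 was above 0 with both scalings. Mmp23 (NM_011985, chromosome 4, 155024764 to 155027493) had an RPKM of 0.582, 0.677, 0.891, 0.149 and 0.976 in the AdCMV mice and of 3.75, 4.07, 3.76, 4.83 and 2.71 in the AdVEGF mice, so that the lowest AdVEGF mouse was above the highest AdCMV mouse (log2 fold change 2.52, SE 0.35, limma adjusted p = 5.2e-05). Mmp14, a transmembrane collagenase that also activates the Mmp2 proenzyme (NM_008608, chromosome 14, 55050441 to 55060095), had 5.98, 7.48, 15.1, 8.98 and 16.1 in the AdCMV mice and 23.6, 26.2, 23.6, 23.3 and 19.7 in the AdVEGF mice, in RPKM. AdCMV replicates 3 and 5 were well above the rest of their group and still below every AdVEGF mouse. The ratio of the means was 2.17 (log2 fold change 1.21, SE 0.25, limma adjusted p = 0.00229), and the median-ratio scaled value of 0.81 was no longer called. Mmp15, a related transmembrane MMP, had 5.89, 4.39, 8.45, 4.85 and 8.95 in the AdCMV mice and 14.4, 18.2, 18, 12 and 14.9 in the AdVEGF mice, in RPKM. Its groups did not overlap either (log2 fold change 1.28, SE 0.23, limma adjusted p = 0.000609), and the scaled value of 0.88 was also short of a call. The lone member of the role that was tested and not called, Mmp24, had 2.14 ± 0.835 and 3.39 ± 1.35 RPKM (SD, n = 5; log2 fold change 0.63, SE 0.28, limma adjusted p = 0.113). Over 635 bases it overlaps BC029722 on the opposite strand, which had 7.23 and 11.4 RPKM as group means and a log2 fold change of 0.67, so the reads of Mmp24 carry the same limit as those of Mmp19.

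Mmp17 and Mmp25, which are held in the membrane by a lipid anchor, were the least certain of these calls. Mmp17 had 6, 2, 8, 0 and 3 reads in the AdCMV mice and 13, 14, 10, 13 and 10 in the AdVEGF mice, and with a mean of 0.522 RPKM in the AdVEGF group it was the member just above the filter (log2 fold change 1.51, SE 0.47, limma adjusted p = 0.0265). No call was made for it without AdCMV replicate 2 (1.36 on the log2 scale), AdCMV replicate 4 (1.23), AdVEGF replicate 2 (1.4965) or AdVEGF replicate 3 (1.51). Without AdVEGF replicate 1 its mean dropped below the filter and it was not tested. Mmp25 had an RPKM of 0.37, 0.485, 1.28, 0.347 and 0.465 in the AdCMV mice and of 0.953, 1.88, 1.91, 1.02 and 0.84 in the AdVEGF mice. AdCMV replicate 3 stood apart from its group and lay among the AdVEGF mice (log2 fold change 1.11, SE 0.37, limma adjusted p = 0.0386). Of all called members it had the adjusted p nearest to the threshold, and its call was lost without AdCMV replicate 1 (1.00), 2 (1.08), 4 (0.98) or 5 (1.07) and without AdVEGF replicate 2 (0.97) or 3 (0.96).

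**Figure D2:**
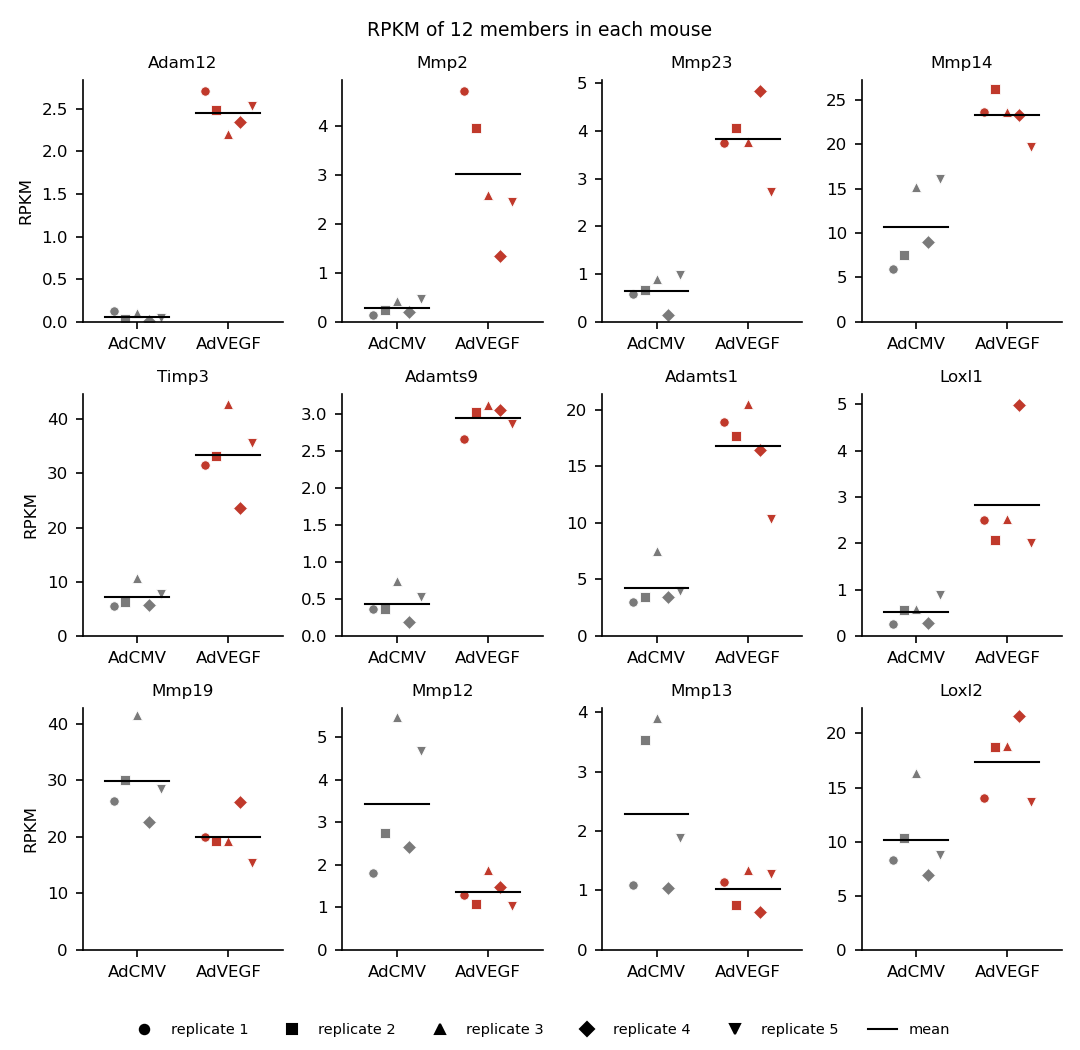
RPKM (vertical axes, each from 0) of 12 members in the 5 AdCMV mice (grey) and the 5 AdVEGF mice (red); the marker shape gives the replicate number and the line the group mean. The groups do not overlap for the 8 members in the upper and middle panels, from Adam12 to Loxl1, while Mmp19, Mmp12, Mmp13 and Loxl2 overlap.

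All 3 TIMPs that could be tested had higher means in the AdVEGF group, and Timp2 and Timp3 were called. Timp3, which stays bound to the matrix and inhibits ADAMs and ADAMTS proteases besides MMPs (NM_011595, chromosome 10, 85763157 to 85812250), had an RPKM of 5.47, 6.21, 10.6, 5.67 and 7.69 in the AdCMV mice and of 31.6, 33.2, 42.8, 23.6 and 35.7 in the AdVEGF mice. AdVEGF replicate 4 was the lowest of its group and was still above every AdCMV mouse. The ratio of the means was 4.68 (log2 fold change 2.23, SE 0.22, limma adjusted p = 1.73e-06), and Timp3 went from place 8 among the 89 members in the AdCMV group to place 1 in the AdVEGF group. It lies inside Syn3, a gene on the opposite strand that had at most 0.309 RPKM as a group mean, far below the level of Timp3. Timp2, an inhibitor that also forms the complex in which Mmp14 activates the Mmp2 proenzyme (NM_011594, chromosome 11, 118162375 to 118216725), had 1.26, 2.11, 1.97, 0.997 and 3.41 RPKM in the AdCMV mice and 6.35, 6.48, 6.47, 10.8 and 4.77 RPKM in the AdVEGF mice. AdVEGF replicate 4 was high, the groups did not overlap (log2 fold change 1.86, SE 0.30, limma adjusted p = 0.000239), and without that mouse the log2 fold change was 1.69 and still called.

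Timp1, an inhibitor of soluble MMPs that stellate cells are known to make in injured liver (NM_001294280, chromosome X, 20448160 to 20451863), owed most of its AdVEGF mean to 1 mouse. Its reads were 10, 23, 16, 7 and 10 in the AdCMV mice and 13, 16, 20, 101 and 12 in the AdVEGF mice, or 2.15, 2.65, 3.16, 1.16 and 2.71 and 3.6, 3.35, 5.57, 19.3 and 2.78 RPKM. AdVEGF replicate 4 was more than 3-fold above the next mouse, and AdVEGF replicate 5 lay among the AdCMV mice. Timp1 had the adjusted p nearest to the threshold among members not called (log2 fold change 1.17, SE 0.42, limma adjusted p = 0.0537). Without AdVEGF replicate 4 the log2 fold change was 0.70. A call was made without AdCMV replicate 3, at 1.28, without AdVEGF replicate 2, at 1.32, and without AdVEGF replicate 5, at 1.38. Timp4 had at most 1 read in any library, with 2 reads in all over each group.

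Set against each other per length, TIMP transcripts made up a larger part in the AdVEGF mice. The summed RPKM of the 4 TIMPs was 8.88, 11, 15.8, 7.83 and 13.8 in AdCMV replicates 1 to 5 and 41.6, 43, 54.9, 53.9 and 43.3 in AdVEGF replicates 1 to 5. The summed RPKM of all 23 MMPs was 45.1, 52.9, 82.4, 42.5 and 65.5 in the AdCMV mice and 75.4, 80.7, 77.7, 80.4 and 63.3 in the AdVEGF mice. The TIMP sums of the groups lay apart and the MMP sums overlapped, with AdCMV replicate 3 holding the highest MMP sum of the 10 mice. Most of the TIMP sum was Timp3, with a mean of 7.13 of 11.5 RPKM in the AdCMV mice and 33.4 of 47.3 in the AdVEGF mice. Within the MMPs the secreted ones summed to 36.9 ± 10.0 RPKM in the AdCMV mice and 27.7 ± 4.14 in the AdVEGF mice (SD, n = 5), and the membrane-bound ones to 20.8 ± 7.67 and 47.9 ± 4.9 (SD, n = 5).

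The ratio of the TIMP sum to the MMP sum does not depend on the scaling between libraries. It was 0.197, 0.209, 0.192, 0.184 and 0.211 in the AdCMV mice and 0.551, 0.533, 0.706, 0.67 and 0.684 in the AdVEGF mice. The AdCMV mice were close to each other and the lowest AdVEGF mouse was more than 2-fold above the highest of them. Leaving Mmp19 out of the MMP sum gave a ratio of 0.423 ± 0.0521 in the AdCMV mice and 0.857 ± 0.127 in the AdVEGF mice (SD, n = 5), again with no overlap. Timp3 held most of the TIMP sum and was not left out in turn, so the ratio does not show a shift shared by the TIMPs. The ratio is one of RNA levels, and it was not put to a test because the members were chosen with results of these data known.

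**Figure D3:**
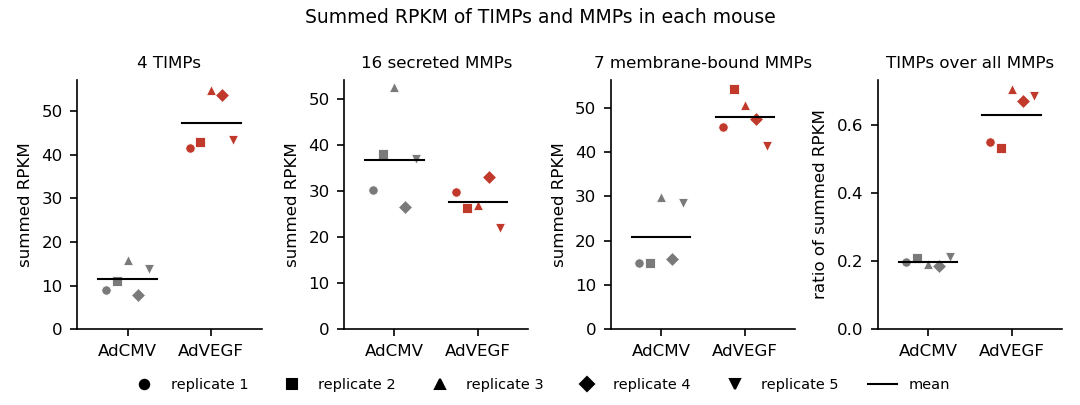
Summed RPKM of the 4 TIMPs, the 16 secreted MMPs and the 7 membrane-bound MMPs, and the ratio of the TIMP sum to the sum of all MMPs (vertical axes, from 0), in each AdCMV mouse (grey) and AdVEGF mouse (red); lines are group means and marker shapes replicate numbers. The ratio lies between 0.184 and 0.211 in the AdCMV mice and between 0.533 and 0.706 in the AdVEGF mice.

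Of the 33 ADAMs, 10 were tested, 4 were called higher and none lower, and 2 of the 4, Adam12 and Adam19, were also called after median-ratio scaling. The most abundant ADAMs, Adam17 and Adam10, were not among the calls. Adam12, known from muscle, fat and activated stellate cells (NM_007400, chromosome 7, 141074883 to 141416780), had the largest log2 fold change of the 38 tested members. Adam12 passed the filter through the AdVEGF mean alone, so being tested and ranked depended on its level in that group. Its reads were 7, 3, 6, 1 and 2 in the AdCMV mice and 116, 141, 94, 146 and 130 in the AdVEGF mice, or 0.126, 0.029, 0.1, 0.014 and 0.045 and 2.7, 2.48, 2.2, 2.35 and 2.52 RPKM. The AdVEGF mice were close to one another and far above all AdCMV mice. The ratio of the means was 39 (log2 fold change 4.02, SE 0.33, limma adjusted p = 2.59e-07), and every alternative listed under the processing kept the call. Adam19, which sheds neuregulins, had an RPKM of 0.563, 0.511, 1.11, 0.233 and 1.85 in the AdCMV mice and of 2.96, 1.98, 3, 2.87 and 3.21 in the AdVEGF mice. AdVEGF replicate 2 was the lowest of its group and just above AdCMV replicate 5 (log2 fold change 1.85, SE 0.38, limma adjusted p = 0.00208). After median-ratio scaling the groups of Adam19 overlapped.

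Adam15 and Adam23 were called on the deposited RPKM and not after median-ratio scaling. Adam15, which is made by endothelial and other cells, had 1.55 ± 0.748 RPKM in the AdCMV mice and 3.74 ± 1.46 in the AdVEGF mice (SD, n = 5), with overlap (log2 fold change 1.28, SE 0.34, limma adjusted p = 0.0117; 0.90 after median-ratio scaling). Adam23, which lacks a working active site and binds integrins, had 1.48, 1.56, 1.82, 1.33 and 2.73 RPKM in the AdCMV mice and 3.22, 2.29, 3.37, 5.82 and 4.35 RPKM in the AdVEGF mice (log2 fold change 1.03, SE 0.27, limma adjusted p = 0.0116). AdCMV replicate 5 lay above AdVEGF replicate 2, so the groups overlapped. Its log2 fold change was the smallest of the calls and fell under 1 without AdCMV replicate 1 (0.98), 2 (0.999) or 4 (0.94) and without AdVEGF replicate 4 (0.87) or 5 (0.97).

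Adam17, the sheddase of tumour necrosis factor and of epidermal growth factor receptor ligands, had 19.9 ± 5.74 RPKM in the AdCMV mice and 23.8 ± 2.67 in the AdVEGF mice (SD, n = 5). The groups overlapped (log2 fold change 0.30, SE 0.21, limma adjusted p = 0.302), and after median-ratio scaling the sign turned, to -0.10. Over 99 bases the gene overlaps Iah1 on the opposite strand, with 74.5 and 88.1 RPKM as group means, and the same limit as for Mmp19 holds there. Adam10, the sheddase of Notch receptors, had 13.1 ± 4.27 and 20.3 ± 2.82 RPKM (SD, n = 5), a difference with an adjusted p under the threshold and a fold change that was not (log2 fold change 0.68, SE 0.22, limma adjusted p = 0.0358). Adam9, Adam28, Adam4 and Adam11 were tested and not called, with log2 fold changes from -0.044 to 0.49. Adam9 (0.39, then -0.012) and Adam4 (0.019, then -0.33) also turned sign with median-ratio scaling. Among the 23 ADAMs below the filter, 12 had no read in any library, and many of these are known mainly from testis.

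All 4 proteoglycanases that could be tested, Adamts1, Adamts4, Adamts5 and Adamts9, were called higher, and the 4 calls held after median-ratio scaling. These enzymes cut versican and aggrecan. Adamts4, Adamts5 and Adamts9 passed the filter through the AdVEGF mean alone, so being tested at all depended on their level in that group. Adamts1 (NM_009621, chromosome 16, 85794073 to 85803360) had an RPKM of 3, 3.44, 7.5, 3.42 and 3.99 in the AdCMV mice and of 18.9, 17.7, 20.5, 16.4 and 10.3 in the AdVEGF mice. AdCMV replicate 3 and AdVEGF replicate 5 were nearest to each other, and no values overlapped (log2 fold change 1.99, SE 0.26, limma adjusted p = 2.22e-05). Adamts9, which was found in endothelium as a regulator of vessel growth, had 0.368, 0.358, 0.74, 0.194 and 0.521 RPKM in the AdCMV mice and 2.67, 3.03, 3.12, 3.05 and 2.87 RPKM in the AdVEGF mice. The AdVEGF values lay close together and the ratio of the means was 6.76 (log2 fold change 2.59, SE 0.30, limma adjusted p = 5.91e-06).

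Adamts4 and Adamts5 were lower in level and moved by a like amount. Adamts4 had 0.339, 0.142, 0.762, 0.087 and 0.522 RPKM in the AdCMV mice and 1.22, 1.21, 2, 2.32 and 1.58 in the AdVEGF mice, and Adamts5 had 0.188, 0.339, 0.329, 0.197 and 0.408 and 1.21, 0.998, 2.41, 1.53 and 0.844. Neither gene had any overlap between the groups. Their log2 fold changes were 2.09 (SE 0.41, limma adjusted p = 0.00137) and 1.88 (SE 0.35, limma adjusted p = 0.000868). Adamts5 lies next to Adamts1, the pair spanning 85794073 to 85901370 of chromosome 16 in mm9. The remaining 3 proteoglycanases were below the filter, and 1 of them, Adamts20, had no read.

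Of the procollagen N-proteinases, which remove the amino-terminal propeptide of fibrillar procollagens, Adamts2 was called higher. Adamts2 and Adamts14 were tested through the AdVEGF mean alone. Adamts2 had 0.191, 0.297, 0.438, 0.19 and 0.647 RPKM in the AdCMV mice and 2.04, 1.19, 1.38, 1.95 and 1.5 RPKM in the AdVEGF mice, with each AdVEGF mouse above each AdCMV mouse (log2 fold change 1.99, SE 0.34, limma adjusted p = 0.000389). Adamts14 had 0.33 ± 0.237 and 0.739 ± 0.238 RPKM (SD, n = 5), with overlap, and was not called (log2 fold change 1.08, SE 0.41, limma adjusted p = 0.0647). It was called without AdCMV replicate 3, at 1.18, and without AdCMV replicate 5, at 1.34. Adamts3 was below the filter with at most 5 reads in a library.

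Adamts10 and Adamts12 were called higher among the remaining ADAMTS genes. The filter was passed by Adamts10 in both groups and by Adamts12 through the AdVEGF mean alone. Adamts10, which binds fibrillin microfibrils, had 0.479, 0.551, 0.943, 0.21 and 1.12 RPKM in the AdCMV mice and 3.53, 2.3, 2.57, 2.28 and 2.94 RPKM in the AdVEGF mice (log2 fold change 2.03, SE 0.34, limma adjusted p = 0.000332). Adamts12, which cuts cartilage oligomeric matrix protein, had 0.178, 0.06, 0.245, 0.068 and 0.252 RPKM in the AdCMV mice and 1.18, 1.04, 0.95, 1.5 and 0.742 RPKM in the AdVEGF mice (log2 fold change 2.23, SE 0.38, limma adjusted p = 0.000397). Neither overlapped between the groups. Adamts7 had 0.889 ± 0.356 and 1.42 ± 0.688 RPKM (SD, n = 5) and was not called (log2 fold change 0.60, SE 0.38, limma adjusted p = 0.248). Adamts13, the protease of von Willebrand factor, was below the filter, with 7, 5, 4, 2 and 6 reads in the AdCMV mice and 17, 4, 4, 6 and 10 in the AdVEGF mice. Of the 5 ADAMTS-like proteins, which lack the protease domain, only Adamtsl2 was tested, and it was not called (log2 fold change 0.87, SE 0.43, limma adjusted p = 0.144); Adamtsl4 was next in level, with 0.156 and 0.441 RPKM as group means.

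The lysyl oxidases did not move as 1 group. Of the 4 tested, Loxl1 and Loxl3 were called higher, Loxl1 alone after median-ratio scaling, and Loxl2 and Loxl4 were not called. Loxl1, which acts on elastic fibres (NM_010729, chromosome 9, 58135530 to 58161019), had an RPKM of 0.249, 0.557, 0.572, 0.287 and 0.887 in the AdCMV mice and of 2.51, 2.06, 2.52, 4.99 and 2.01 in the AdVEGF mice. AdVEGF replicate 4 stood apart at the top, and the other 4 AdVEGF mice were also above every AdCMV mouse. The log2 fold change was 2.28 (SE 0.34, limma adjusted p = 0.000114) with all mice and 2.06 without that mouse, and it was called in both.

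Loxl2 was the most abundant lysyl oxidase and is known to act on type IV collagen (NM_033325, chromosome 14, 70009283 to 70095641). It had 8.34, 10.3, 16.3, 6.96 and 8.81 RPKM in the AdCMV mice and 14.1, 18.7, 18.9, 21.6 and 13.7 RPKM in the AdVEGF mice. AdCMV replicate 3 lay among the AdVEGF mice. The difference had an adjusted p under the threshold. Among the members with such a p, Loxl2 was the first outside the limit on fold change (log2 fold change 0.81, SE 0.23, limma adjusted p = 0.019). Loxl3 had 1.23, 1.91, 2.55, 1.6 and 1.81 RPKM in the AdCMV mice and 3.4, 3.84, 4.74, 5.06 and 2.91 RPKM in the AdVEGF mice with no overlap (log2 fold change 1.10, SE 0.24, limma adjusted p = 0.00346), and its value was 0.71 after median-ratio scaling and 0.97 without AdCMV replicate 1, both short of a call. It overlaps Htra2, a gene on the opposite strand, over 1297 bases, and Htra2 had 4.69 and 7.53 RPKM as group means (log2 fold change 0.66). The reads of Loxl3, and with them its call, therefore carry the same limit as those of Mmp19. Loxl4 had 1.58 ± 0.429 and 1.42 ± 0.364 RPKM (SD, n = 5; log2 fold change -0.15, SE 0.28, limma adjusted p = 0.71). Lox itself was the member closest to the filter from below, and its reads were 1, 5, 6, 2 and 1 in the AdCMV mice and 4, 4, 13, 46 and 7 in the AdVEGF mice, again with AdVEGF replicate 4 apart from the rest.

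**Figure D4:**
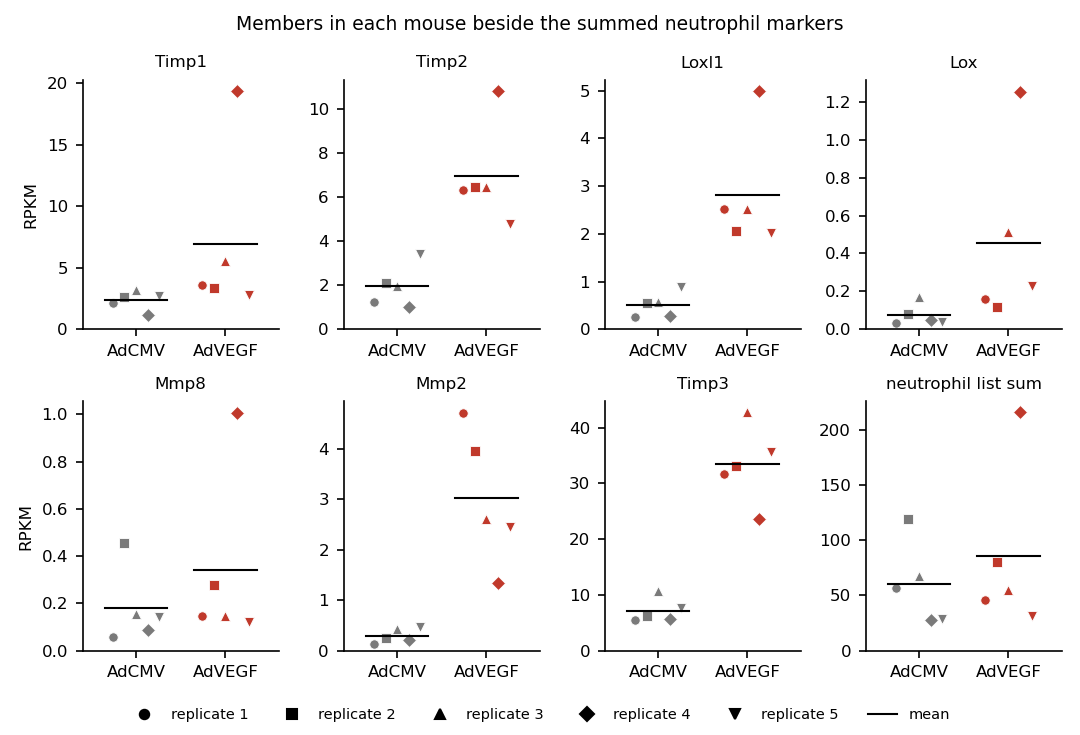
RPKM (vertical axes, from 0) of 7 members in each AdCMV mouse (grey) and AdVEGF mouse (red), and in the last panel the summed RPKM of the neutrophil marker list; marker shapes give the replicate number and lines the group means. AdVEGF replicate 4 (diamond) is the highest of the 10 mice for Timp1, Timp2, Loxl1, Lox, Mmp8 and the neutrophil list, and the lowest of the AdVEGF mice for Mmp2 and Timp3.

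AdVEGF replicate 4 thus held the highest value of its group for several members, though not for all. It was the highest AdVEGF mouse for 15 of the 38 tested members, which is 39.5%, and for 29.1% of all transcripts tested with a read in that group. The corresponding figures for AdCMV replicate 3 in the AdCMV group were 20 of 38 members, which is 52.6%, and 64.9% of all transcripts. For AdCMV replicate 5 they were 16 of 38 members, which is 42.1%, and 24.1% of all transcripts, a wider gap than that of AdVEGF replicate 4. Beside these members, AdVEGF replicate 4 had the highest sums of the neutrophil list, 45.6, 80.5, 54.7, 216 and 31.4 RPKM in AdVEGF replicates 1 to 5, and of the myofibroblast list, 254, 272, 308, 445 and 189.6 RPKM. It was also the highest AdVEGF mouse for the sums of the pan-endothelial list and of 4 of the 5 pathway lists described next, all but the plasminogen system. The part of any cell type in the values of that mouse was not tested.

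The members were set beside other genes of matrix turnover from 5 lists, whose counts of calls stand against the 13% of all transcripts tested that were called higher. Among the calls in these lists, Thbs2, Tspan5, Ctsk, Htra3, Pcolce2, Plod2, Eln and Fbln5 passed the filter through the AdVEGF mean alone, and 518 of the 933 transcripts that passed this way were called higher. The plasminogen system, which generates plasmin and with it active MMPs, had 3 of 9 tested genes called higher and none lower, with a median log2 fold change of 0.62. Plat, the tissue plasminogen activator, had 0.549, 0.589, 1.36, 0.506 and 0.483 RPKM in the AdCMV mice and 5.73, 5.3, 10.0, 11.9 and 4.61 RPKM in the AdVEGF mice, with no overlap (log2 fold change 3.25, SE 0.32, limma adjusted p = 1.42e-06). Plaur, the urokinase receptor (1.55 on the log2 scale), and Plau, urokinase (1.00, and 0.61 and no call after median-ratio scaling), were the other calls. Plg, plasminogen, which hepatocytes make, was the most abundant of the list at 196 ± 31 and 248 ± 18.8 RPKM (SD, n = 5) and was not called (log2 fold change 0.35, SE 0.18, limma adjusted p = 0.165).

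Of the other inhibitors and regulators of matrix proteases, 7 of 19 tested genes were called higher and none lower, and 5 were higher after median-ratio scaling. Sparc, a matrix protein of remodelling tissue, went from 17.9, 22.3, 34.6, 11.8 and 27.4 RPKM in the AdCMV mice to 219, 216, 201, 278 and 185 RPKM in the AdVEGF mice, far above the range of the controls (log2 fold change 3.34, SE 0.25, limma adjusted p = 1.12e-07). Thbs2, which binds Mmp2 for uptake into cells, had a log2 fold change of 2.41, and Tspan17 and Tspan5, tetraspanins that bind Adam10, had 1.94 and 1.67. Pzp, a plasma protease inhibitor, was the most abundant at 319.8 ± 136 and 509 ± 77.6 RPKM (SD, n = 5) and was not called (log2 fold change 0.74, SE 0.25, limma adjusted p = 0.0386). The median log2 fold change of the list was 0.74.

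Among 14 tested genes for other matrix-degrading proteases, 4 were called higher and none lower, with a median log2 fold change of 0.54, and 3 of them were also called after median-ratio scaling. Ctsk and Htra3 are 2 of the 4 and were tested through the AdVEGF mean alone. The 4 calls were those of Prss23 (2.50), Htra1 (1.76), the collagenolytic cathepsin Ctsk (1.53) and Htra3 (1.45). Ctsl, a lysosomal cathepsin and the most abundant of the list, had 127, 132, 167, 105 and 129 RPKM in the AdCMV mice and 169.7, 197, 178, 571 and 167 RPKM in the AdVEGF mice. All AdVEGF mice were above the AdCMV mice by a little, except replicate 4, which stood far above, and Ctsl was not called (log2 fold change 0.78, SE 0.30, limma adjusted p = 0.0633).

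The partners of collagen processing and cross-linking had 4 of 11 tested genes called higher and none lower, also after median-ratio scaling, with a median log2 fold change of 0.89. Serpinh1, the collagen chaperone, had 7.37, 7.65, 8.42, 3.54 and 8.66 RPKM in the AdCMV mice and 51.3, 46.4, 52.3, 65.6 and 35.8 RPKM in the AdVEGF mice, with a wide gap between the groups (log2 fold change 2.84, SE 0.25, limma adjusted p = 3.75e-07). The lysyl hydroxylase Plod2 (2.14) and the procollagen proteinase enhancers Pcolce2 (2.03) and Pcolce (1.65), which raise the rate of procollagen cleavage, were the other calls, and Plod2 and Pcolce2 were tested through the AdVEGF mean alone. Tgm2, a transglutaminase, was the most abundant at 58 ± 24.9 and 108 ± 33.5 RPKM (SD, n = 5; log2 fold change 0.94, SE 0.27, limma adjusted p = 0.0185) and was not called.

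The substrates showed the largest shift, with 12 of 14 tested genes called higher, none lower and a median log2 fold change of 2.75, and 11 were called after median-ratio scaling. Col1a1 had 2.05, 2.6, 2.92, 0.685 and 4.34 RPKM in the AdCMV mice and 24.6, 27.1, 20.7, 52.6 and 15.9 RPKM in the AdVEGF mice (log2 fold change 3.51, SE 0.39, limma adjusted p = 4.41e-06). Its groups were far apart, with AdVEGF replicate 4 the highest. Col1a2 (3.30), the basement membrane laminin Lama4 (3.12) and Col3a1 (3.10) followed. Fn1, fibronectin, which hepatocytes secrete into plasma, was the most abundant at 76.4 ± 34.5 and 130.3 ± 39.3 RPKM (SD, n = 5) and fell short of the limit on fold change (log2 fold change 0.82, SE 0.27, limma adjusted p = 0.033). Acan, the cartilage proteoglycan, had no read.

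Markers of the cell types that the liver can hold were examined in the same libraries. Their calls stand against 13% higher and 1.54% lower among all transcripts tested, or 7.77% and 3.14% after median-ratio scaling. The libraries matched the label of the tissue in the hepatocyte list, whose 10 genes were all well expressed, from Hnf4a at 62.7 ± 21.3 and 53.8 ± 5.6 RPKM to Alb at 7716 ± 2056 and 16667 ± 1841 RPKM (SD, n = 5). Summed, the list had 19026, 22108, 18878, 18250.0 and 24834 RPKM in the AdCMV mice and 33435, 32940.0, 40453, 36876 and 36669 RPKM in the AdVEGF mice, with 3 of 10 genes called higher and none lower on the deposited RPKM, and none higher and 1 lower after median-ratio scaling. The sums of the groups lay apart, and the cause was not tested.

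Endothelial and stellate markers were mostly called higher, against 13% of all transcripts tested, or 7.77% after median-ratio scaling. All 14 pan-endothelial markers were called higher, and their summed RPKM was 58.6, 65.9, 90.2, 46.8 and 88.8 in the AdCMV mice and 404, 378, 441, 462 and 377 in the AdVEGF mice, with Egfl7 the most abundant at 16.8 ± 4.79 and 91.4 ± 23.8 (SD, n = 5). No AdVEGF mouse came near the AdCMV mice. Of the 10 sinusoidal endothelial markers, 8 were called higher, with sums of 79.5, 95.1, 115, 66.5 and 111 RPKM and 292, 228, 254, 275 and 205 RPKM, and Clec4g was the most abundant over both groups. After median-ratio scaling 7 were higher, and F8 and Dnase1l3 were lower. Of the 10 hepatic stellate markers, 8 were called higher, Hand2 among them through the AdVEGF mean alone, with sums of 90.3, 136, 109, 95.3 and 137 RPKM and 329, 300.03, 253, 241 and 171 RPKM, Dcn being the most abundant. All 6 myofibroblast markers were called higher, with sums of 28.7, 40.8, 50.5, 19.4 and 46.3 RPKM and 254, 272, 308, 445 and 189.6 RPKM and Tagln as the most abundant over both groups. Col1a1, Col1a2, Col3a1 and Dcn are also on the substrate list, so these lists are not separate measurements. None of the markers of these 4 lists was at 0 in a group, and their part in the differences of the members was not tested.

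Markers of the remaining cell types differed among themselves. Of 11 Kupffer cell and macrophage markers, 3 were called higher and none lower, with sums of 176, 249, 242, 145 and 315 RPKM in the AdCMV mice and 473, 391, 429, 342 and 306 RPKM in the AdVEGF mice, which overlapped, and Cd5l was the most abundant. After median-ratio scaling 2 were called higher and none lower, the call of Csf1r being lost at 0.78. Of all transcripts tested, 13% were called higher on the deposited RPKM and 7.77% after that scaling, and 1.54% and 3.14% were called lower. Of the 8 T and NK cell markers, 5 could be tested, Cd3e, Cd3g, Cd8a, Nkg7 and Gzmb, and they were called lower, with sums of 16.3, 16.1, 28.2, 6.55 and 24.7 RPKM and 8.65, 6.58, 10.9, 4.25 and 4.29 RPKM and Nkg7 as the most abundant, and AdCMV replicate 4 lay among the AdVEGF mice. The NK cell markers Ncr1 (0.113 and 0.377 RPKM as group means) and Klrb1c (0.196 and 0.32) were below the filter with higher means in the AdVEGF group. Of the 7 neutrophil markers tested, 4 were called higher, namely Camp, Ngp, Mpo and Elane, all genes of immature cells that passed the filter through the AdVEGF mean alone, and Camp was not called after median-ratio scaling. The sums of this list were 57.2, 119, 68.1, 28.2 and 28.9 RPKM in the AdCMV mice against those given above for the AdVEGF mice, with S100a8 the most abundant and Mpo without a read in the AdCMV group. The 3 platelet and megakaryocyte markers tested were called higher, with sums of 6.35, 6.62, 3.93, 3.34 and 4.5 RPKM and 22, 33.9, 28.4, 27.2 and 8.07 RPKM and Pf4 the most abundant. Of the 4 cholangiocyte markers tested, Spp1 alone was called higher, and the sums of 40.4, 53.7, 52, 24.2 and 39 RPKM and 599, 726, 466, 642 and 281 RPKM were mostly from Spp1, at 35.2 ± 11.3 and 531 ± 174 RPKM (SD, n = 5), which other cells make too. The part of these cells in the differences of the members was not tested.

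**Figure D5:**
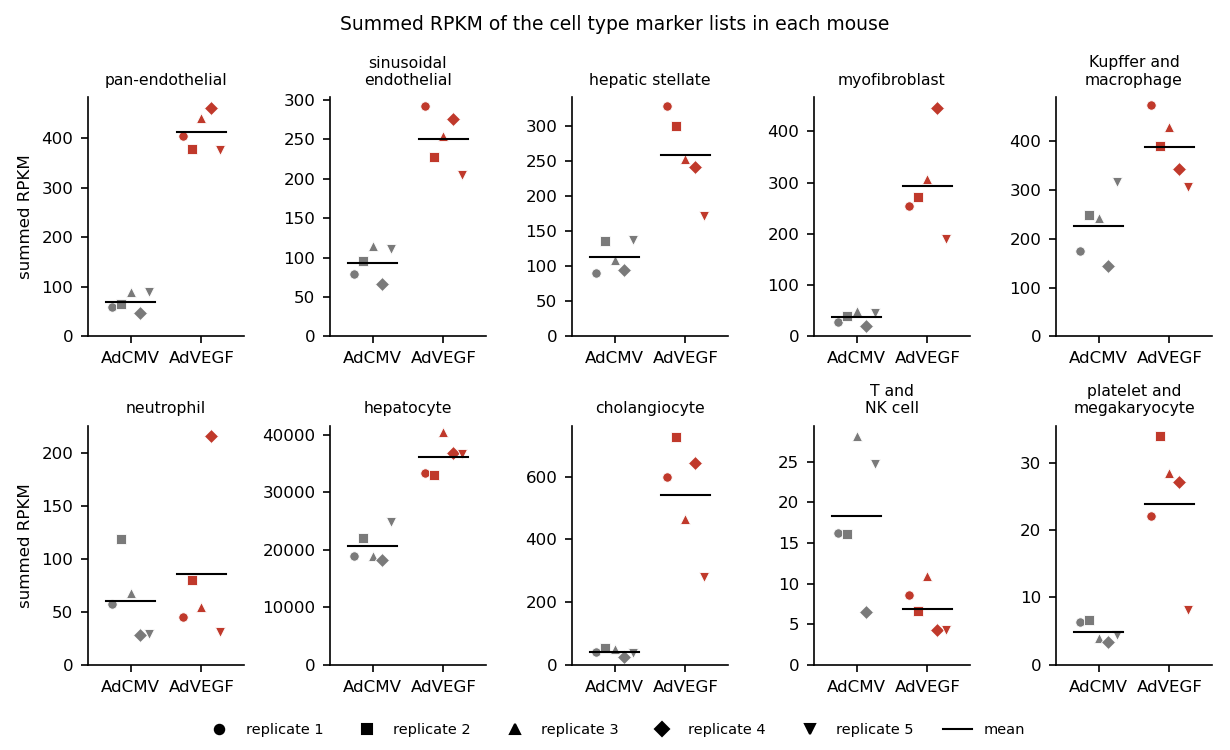
Summed RPKM (vertical axes, from 0) of 10 cell type marker lists in each AdCMV mouse (grey) and AdVEGF mouse (red), with replicate numbers as marker shapes and group means as lines. The sums lie apart for the pan-endothelial, sinusoidal endothelial, hepatic stellate, myofibroblast, hepatocyte, cholangiocyte and platelet lists, and overlap for the macrophage, neutrophil and T and NK cell lists.

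The 51 members below the filter complete the account. Besides the 17 with no read in any library, 13 had 1 to 10 reads over all 10 libraries together and 21 had more than 10, at most 146. At most 3 reads in each library were found for 32 of the 51, a level at which a difference was not detectable at this depth. Lox, Mmp8, Mmp9, Adamts13, Adamtsl4 and Timp4 are given above, and their fold changes are not given. Without the filter Adamtsl4 was called higher and Mmp25 was no longer called. The calls among the 38 tested members also depended on the size of change asked for: tested against a log2 fold change of 1 with limma's treat, 8 members remained higher, namely Adam12, Mmp2, Adamts9, Mmp23, Mmp11, Loxl1, Timp3 and Adamts1, and none lower. Of these 8, Adam12, Mmp2, Adamts9 and Mmp11 had passed the filter through the AdVEGF mean alone. With a pseudocount of 1 RPKM 12 were higher and none lower, the calls lost being those of Adam15, Adam23, Adamts2, Adamts4, Adamts5, Adamts12, Loxl3, Mmp11, Mmp12, Mmp17 and Mmp25.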

How the data were processed

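The authors deposited RPKM per RefSeq transcript, and the submitters' processing notes name TopHat, HOMER and mm9. The deposited transcript length served to recover whole reads and library totals from the RPKM steps. All values below 300 reads came out whole within 0.05 reads plus the rounding of the deposited values and a small term that grows with the reads. This check is weak for long transcripts, and the library totals were themselves fitted so that the values come out whole. The table also holds the authors' comparison of the groups, a log fold change and an FDR for each transcript, which were not used.

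All 24016 transcripts except the 5 without a symbol (at most 0.00534% of a library's reads) entered limma (lmFit, then eBayes with trend; limma 3.58.1 under R 4.3.3), with 0.1 added to the RPKM before log2, after a filter that asked for a group mean above 0.5 RPKM in either group. P-values were adjusted over all 13933 transcripts tested with the Benjamini-Hochberg method, and a call needed an adjusted p below 0.05 together with a log2 fold change beyond 1 or -1. The fit was tested on simulated data. Samples were grouped by their labels; libraries of a group differed by at least 12.9 times the counting variance, so none was a repeat of another. The 21 alternatives were 2 scalings (median-ratio, upper quartile), 2 pseudocounts (1 and 0.01), 3 filters, treat, 1 transcript per symbol, voom on the recovered reads, blocking by replicate number, and omission of each mouse in turn. Figures were drawn in Python 3.11.15 (matplotlib 3.10.9).

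The members and lists were chosen with earlier results of these data known. Named singly were the called members, all TIMPs and lysyl oxidases, the 2 most abundant of each role, members whose call changed with median-ratio scaling, and the first outside each threshold; in the pathway lists up to 4 calls and the most abundant gene. Other members were named after their values were seen. The planned split of the ADAMs by their zinc-binding motif was not made, since protein sequences were not used here, so the ADAMs are 1 role.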

Additional observations from a re-analysis of the deposited data

Results flagged for a closer look

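A mouse was marked as far from the others of its group where its gap to the nearest mouse, divided by the range of the 5, was over 0.71. This held for 9 of 130 groups of 5 values, and chance marks about 5% of groups. AdVEGF replicate 4 was the high mouse for Timp1 (0.832 of the range, at 19.3 RPKM), Loxl1 (0.827, 4.99 RPKM), Timp2 (0.718, 10.8 RPKM), the summed neutrophil list (0.734, 216 RPKM) and the summed list of other matrix-degrading proteases (0.744), where Ctsl alone held 571 of 1056.5 RPKM. AdCMV replicate 3 was the high mouse for Mmp25 (0.853, 1.28 RPKM), Adamts1 (0.78, 7.5 RPKM) and the summed ADAMTS proteoglycanases, most of which is Adamts1 (0.71, 9.93 RPKM). AdVEGF replicate 2 was the low mouse for Adam19 (0.721, 1.98 RPKM). The calls of Loxl1, Timp2, Adamts1, Mmp25 and Adam19 were also made without the mouse concerned, and Timp1 was called neither with nor without it.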

How the results depend on the processing

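Of the 22 members called higher, 16 were called after median-ratio scaling, which left 2 lower, and 16 after upper quartile scaling, which left 2 lower. A pseudocount of 1 gave 12 higher and 0 lower, and treat gave 8 and 0. Leaving out 1 mouse at a time gave 19 to 24 higher and 0 to 2 lower; the value of 0 came without AdCMV replicate 3 and that of 2 without AdCMV replicate 4. Among the named members the log2 fold change of Adam17 turned from 0.30 to -0.10 with median-ratio and to -0.060 with upper quartile scaling, and that of Loxl4, -0.15, ranged from -0.24 to 4e-04 when 1 mouse was left out, the highest without AdVEGF replicate 4. The cause was not tested. Without a filter Mmp25 was lost and Adamtsl4 was called higher. Voom kept all 23 calls and added Adamts14 and Timp1. Adam12, Mmp2, Adamts9, Mmp23, Loxl1, Timp3 and Adamts1 were called under all 21 alternatives, and Adam12, Mmp2 and Adamts9 among them passed the filter through the AdVEGF mean alone. With 1 RPKM as the filter Mmp17, Adamts14 and Adamtsl2 had no value, and both group means of Adam4 and of Adam11 were also below that filter. Mmp17 also had no value without AdVEGF replicate 1.

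The replicate number as a replicate block gave 23 members higher and 1 lower, with Timp1 added at 1.17 on the log2 scale. The labels do not say whether the numbers pair the mice, and a pairing was not tested. Deviations of same-numbered mice had correlations of 0.0357, 0.109, 0.00763, 0.096 and 0.291 across transcripts, and 3 of 5 numbers matched best with themselves.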
